A study of Mus musculus with 6 samples.

Results

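The CCN genes encode secreted proteins of the extracellular matrix, and the 5 examined here are Ccn1 (formerly Cyr61), Ccn2 (Ctgf), Ccn3 (Nov), Ccn4 (Wisp1) and Ccn5 (Wisp2). Their probe sets are those annotated to these symbols: 10 of 45037 probe sets that are not controls, standing for 5 of 18193 named genes. The family was chosen with earlier results of these data known, and Ccn6, its remaining gene, is given below. RNA came from femurs of 3 male C57BL/6 mice, 8 weeks old and given an intraperitoneal injection of saline, and the labels name no altered gene. Flushing each shaft with buffer gave central marrow cells, which were spun down and then lysed, and Trizol passed through the emptied shaft gave the endosteal RNA. By that protocol the endosteal group is what was left inside the shaft and was lysed there. Its arrays also gave high signals for skeletal muscle markers, given below, and the source of that RNA was not tested. There were 3 central and 3 endosteal arrays, lettered A to C in both regions. The labels do not say that a letter marks 1 mouse. The study compared the RNA of the 2 regions.

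CCN proteins are built from a shared set of cysteine-rich modules and act outside the cell by binding integrins, heparan sulphate proteoglycans and growth factors. Ccn1 and Ccn2 are among the best known targets of YAP and TAZ, the co-activators that work through TEAD factors when cells are spread or stretched, and they also respond to serum and to TGF-beta. Ccn4 and Ccn5 were first described as genes induced by Wnt1, and Ccn5 lacks the C-terminal module of the other members. In the skeleton, Ccn2 is made by chondrocytes and osteoblasts, and Ccn4 by cells of the osteoblast lineage.

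Ccn1 was the 1 member of 5 with a promoter in the RefSeq table used here (build GRCm38.p6). It is shown because it carries the letters bound by TEAD factors. The 250 bases before its start lie at chr3:145649986-145650235 on the minus strand. Capitals mark GGAATG, the TEAD letters, here read on the opposite strand from 103 bases before the start, and TGACGT, the core of a cyclic AMP response element, read on the opposite strand from 59 bases before the start.

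Ccn1: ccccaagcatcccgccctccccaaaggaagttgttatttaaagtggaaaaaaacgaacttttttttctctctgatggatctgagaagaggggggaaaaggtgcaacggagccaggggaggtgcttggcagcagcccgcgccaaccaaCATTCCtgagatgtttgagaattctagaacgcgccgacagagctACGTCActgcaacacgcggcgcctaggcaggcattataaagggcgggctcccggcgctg

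Motifs were searched on both strands in 32851 promoter windows, each from 250 bases before to 50 bases after a start. The TEAD letters were in 14.7% of windows and those of the cyclic AMP response element in 7.51%. The Ccn1 window also held the letters of the promoter element TATAAA from 25 bases before the start, and 13.6% of windows held it on either strand. The CArG box, the site of serum response factor, was in 1.63% of windows and not in that of Ccn1. A match describes letters and not a bound factor.

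All 5 members were higher in endosteal RNA. A gene is called higher or lower here when limma's adjusted p over all 18193 genes, each represented by its brightest probe set, was under 0.05. Log2 changes are differences of log2(signal + 16) and understate the change where signals are low. By that rule 5 of 5 members were called higher and 0 lower (0 lower also at an unadjusted p under 0.05), where 7.92% of all genes were called higher. The 3 endosteal arrays all lay above the 3 central arrays for 5 of 5 members, as they did for 22.3% of all genes. The median change of the members was 3.11, beside 0.10 over all genes. The members called numbered 2 without central A, central C or endosteal B, 3 without endosteal A or C, and 4 without central B. With the array letter as a block only Ccn2 was called, where 0.786% of all genes were called higher. In bulk RNA, a difference in the number of cells of a type and a difference in RNA per cell cannot be told apart.

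Ccn2, the connective tissue growth factor, had the largest change of the 5. In order of the letters A to C, its single probe set (1416953_at) read 96.4, 147 and 40.9 in central marrow and 2117, 1816 and 998 at the endosteum. Every endosteal array was above every central one, and array C was the lowest in both regions. The mean went from 94.7 ± 53.1 to 1644 ± 579 (SD, n = 3 arrays per region), a log2 change of 3.96 (SE 0.47, 95% interval 2.79 to 5.14, limma adjusted p = 0.0101). The call held when any 1 array was left out, with adjusted p of 0.0201 to 0.0410. Ccn2 was also the only member whose mean over all arrays was above the median gene, 226, though its central mean was below it.

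Ccn4, a matrix protein of the osteoblast lineage, had 2 probe sets that both rose. The brighter one (1448593_at) read 42.4, 18.7 and 8.83 in central marrow and 342, 263 and 411 at the endosteum. Its means were 23.3 ± 17.3 and 339 ± 74.3, with a log2 change of 3.24 (SE 0.35, 95% interval 2.37 to 4.12, limma adjusted p = 0.00821). The other (1448594_at) read 10.9, 34.7 and 4.15 against 290, 152 and 172. Over the 10 CCN probe sets the endosteal arrays all lay above the central ones for 8, as they did for 17.8% of all probe sets. In a limma fit over all probe sets, in which 3.21% were called higher, both Ccn4 probe sets passed, with changes of 3.24 and 2.82 (adjusted p = 0.0143 and 0.0263). Endosteal C was the highest array on one and endosteal A on the other. The call for Ccn4 held without any 1 array (adjusted p of 0.0186 to 0.0381). With the array letter as a block Ccn4 did not pass (limma adjusted p = 0.0573).

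Ccn1, an immediate early gene whose product binds several integrins, had 4 probe sets, and the size of their change differed. The brightest (1416039_x_at), which stands for the gene, read 3.30, 73.3 and 9.31 in central marrow and 234, 434 and 234 at the endosteum. Central B was far above the other central arrays and still below all endosteal ones. The means were 28.6 ± 38.8 and 301 ± 116, and the log2 change was 3.11 (SE 0.63, 95% interval 1.56 to 4.66, limma adjusted p = 0.0347).

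The mark x in the name of that probe set means that some of its probes can match other transcripts. Probe set 1457823_at, without that mark, read 10.6, 13.8 and 7.28 in central marrow and 60.1, 119 and 70.7 at the endosteum, also with no overlap. In the limma fit over all probe sets it was the one Ccn1 probe set that passed, at 1.86 (adjusted p = 0.0238), whereas 1416039_x_at had an adjusted p of 0.0541 there. Probe set 1438133_a_at read 37.0, 37.2 and 29.3 against 91.7, 190 and 51.4, which did not overlap, and its difference of 1.18 did not pass (limma adjusted p = 0.167). Probe set 1442340_x_at overlapped, with 4.26, 3.99 and 39.5 against 18.4, 151 and 8.93 (difference 0.89, limma adjusted p = 0.574). Endosteal B gave the highest signal on each of the 4 probe sets.

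The size and the call for Ccn1 depended on the choices made. With pseudocount 1 the difference was 4.28 and did not pass (limma adjusted p = 0.0745), with pseudocount 64 it was 2.01 (0.0104), and with the mean of the 4 probe sets it was 1.76 (0.0541). Ccn1 kept its call without central B (0.0231). It lost the call without central A (0.0968), central C (0.104), endosteal A (0.0774), endosteal B (0.0939) or endosteal C (0.0743).

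Ccn5, the member without the C-terminal module, had the smallest change and the lowest SE of the 5 in the reported fit. Its single probe set (1419015_at) read 99.4, 128 and 109 in central marrow and 406, 342 and 257 at the endosteum, and the regions did not overlap. The means were 112 ± 14.3 and 335 ± 74.5, a log2 change of 1.44 (SE 0.20, 95% interval 0.94 to 1.94, limma adjusted p = 0.0145). Without central A, central C or endosteal B the adjusted p was 0.0564, 0.0547 and 0.0520, so the call was lost. Scaled to the poly-A control transcripts, the change was 2.23.

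Ccn3, also named for its overexpression in nephroblastoma, passed the most narrowly. Its brighter probe set (1426851_a_at) read 0.905, 3.86 and 17.6 in central marrow and 102, 43.1 and 40.0 at the endosteum. The endosteal values lay above the central ones, but each was below the median signal of its array (120 to 131). The means were 7.47 ± 8.93 and 61.5 ± 34.7, with a log2 change of 1.70 (SE 0.40, 95% interval 0.72 to 2.68, limma adjusted p = 0.0491). The other probe set (1426852_x_at) overlapped, with 49.9, 5.86 and 34.9 against 38.0, 31.0 and 12.3 (difference -0.0092, limma adjusted p = 0.993).

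The Ccn3 call was lost under several choices. Leaving out central A, B or C gave an adjusted p of 0.142, 0.144 or 0.0642, and leaving out endosteal A, B or C gave 0.0855, 0.0923 or 0.0763. The call was also lost with pseudocount 1 (difference 3.36, limma adjusted p = 0.0845), after quantile normalisation (1.52, 0.0701), after centring arrays on their medians (1.44, 0.0555) and with the mean of both probe sets (0.85, 0.203). With pseudocount 64 the change was 0.79 (0.0482).

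**Figure D1:**
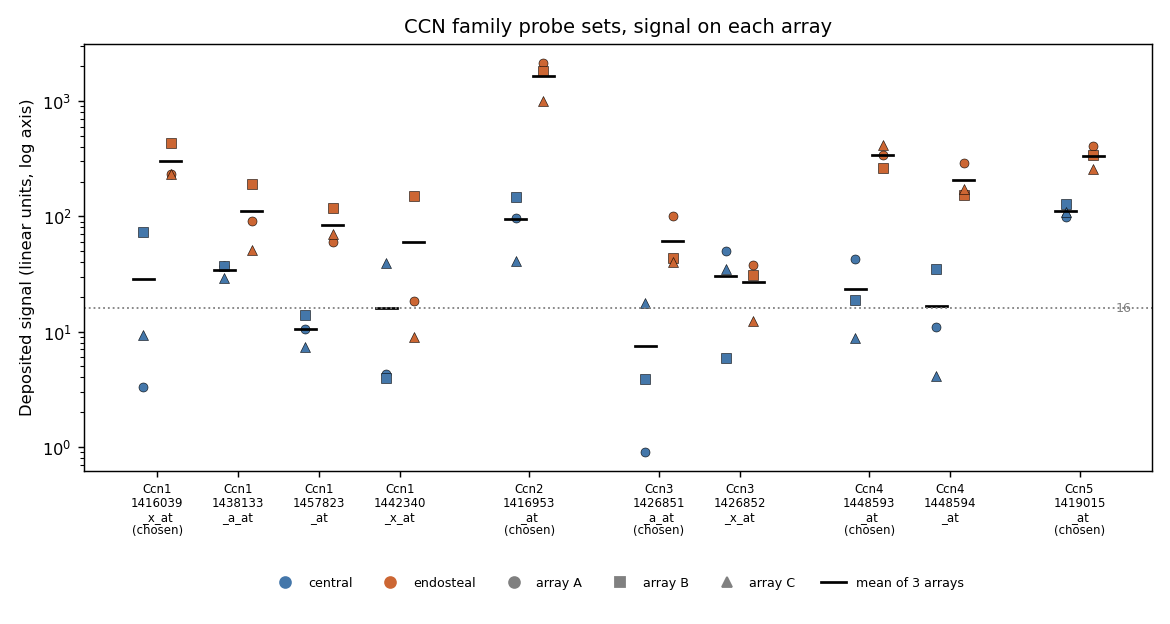
Deposited signal (linear units on a log axis) of the 10 CCN probe sets on each array, central in blue and endosteal in orange, with the array letter as the symbol and a black bar for the mean of 3 arrays; the dotted line is the pseudocount of 16, and the probe set marked chosen stands for its gene. Ccn2 has endosteal signals of 998 to 2117, and 1426852_x_at of Ccn3 and 1442340_x_at of Ccn1 overlap between regions.

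Ordered by log2 change the members ran Ccn2, Ccn4, Ccn1, Ccn3 and Ccn5, at 3.96, 3.24, 3.11, 1.70 and 1.44. The 95% intervals of neighbours in that order overlapped. The interval of Ccn5, up to 1.94, ended below those of Ccn4, from 2.37, and Ccn2, from 2.79, but a difference in change between members was not tested, and different probes need not respond alike. The log2 ratio of mean endosteal to mean central signal, the study's own measure, was 4.12 for Ccn2, 3.86 for Ccn4, 3.39 for Ccn1, 3.04 for Ccn3 and 1.58 for Ccn5. Each of these is larger than the value with the pseudocount, most of all for Ccn3. All 5 differences kept their sign under quantile normalisation, centring and poly-A scaling, with 4, 4 and 5 members called. Ccn3 was the one not called under the first and second of these. Poly-A scaling moved the median change of all genes from 0.10 to 0.84 and centring moved it to -0.16. The share of all genes called higher was 6.38% after quantile normalisation, 5.23% after centring and 48.8% after poly-A scaling. In the same order the share called lower was 3.87%, 9.82% and 0.341%. With 1 array left out, 3.02% to 5.1% of all genes were called higher and 0.555% to 1.69% lower.

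**Figure D2:**
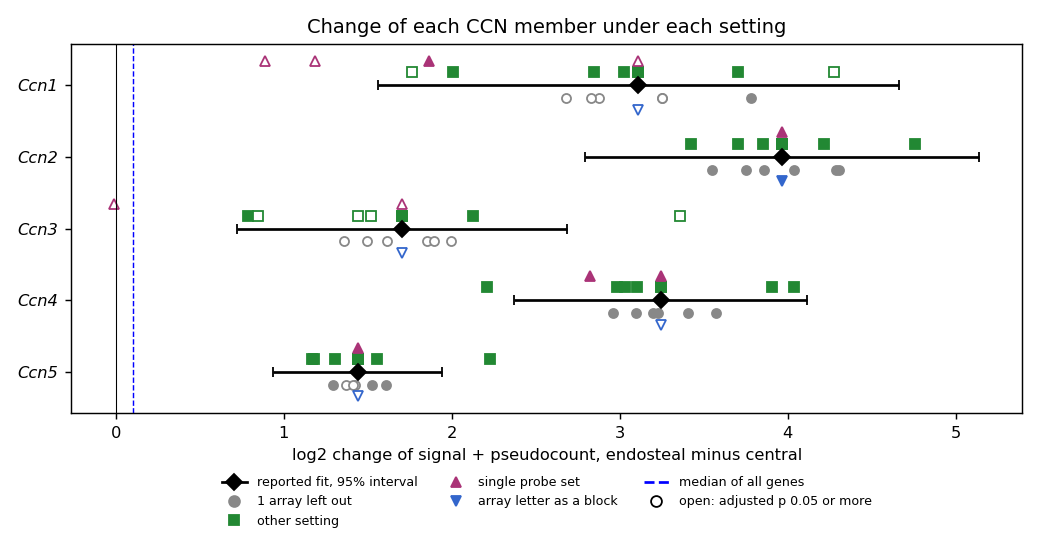
Log2 change of each CCN member (endosteal minus central), with the reported fit and its 95% interval in black, 1 array left out in grey, other settings in green, single probe sets in purple and the array letter as a block in blue; open symbols have an adjusted p of 0.05 or more and the dashed line is the median of all genes, 0.10. Ccn2 has filled symbols throughout, Ccn3 is open with each array left out, and the only value below 0 is 1 probe set of Ccn3, at -0.0092.

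Ccn6, the remaining gene of the family, did not pass. Its probe set read 68.2, 52.3 and 55.1 in central marrow and 74.1, 75.0 and 8.36 at the endosteum. The regions overlapped, with a difference of -0.34 (SE 0.54, limma adjusted p = 0.723) that was 0.29 after poly-A scaling.

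The genes whose profile over the 6 arrays was nearest to that of Ccn2, among 9095 genes above the median level, were Hjv, Neb and Lox. All 3 passed that level, a mean over all arrays, through their endosteal signals. Their means were 31.2, 5.75 and 53.9 in central marrow and 460, 461 and 975 at the endosteum. Neb was under 16 on every central array. Nearness is the Euclidean distance between log2 values after each gene's own mean was subtracted, which was 0.86, 0.92 and 0.93. Hjv, which encodes the BMP co-receptor hemojuvelin, changed by 3.44 (limma adjusted p = 0.0145) and lost its call without endosteal B. Neb, which encodes the giant muscle protein nebulin, changed by 4.38 (0.00494). Lox, whose enzyme crosslinks collagen, changed by 4.01 (0.0105). Such a distance mostly follows the step between regions, so it ranks size of change as much as shape.

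CCN proteins signal through integrins and co-receptors, and among the 14 receptor genes measured 3 rose and 1 fell (7.92% and 4.02% of all genes did). The alpha v, beta 5 and beta 1 integrin genes were those that rose. Itgav went from 1112 ± 74.4 to 2631 ± 353 (SD, n = 3 arrays per region), a log2 change of 1.22 (limma adjusted p = 0.0103), while Itgb5 changed by 0.99 (0.0187) and Itgb1 by 0.85 (0.0207). Notch1, a receptor that CCN3 binds, fell by 0.96 (0.0249), and its difference was -0.09 and did not pass after poly-A scaling. Without passing, the regions also did not overlap for Itgb3 (0.67), Itga2b (0.71), Itga6 (0.56) and Hspg2 (0.49), with endosteal signals above central ones, nor for the leukocyte integrin genes Itgam (-0.59) and Itgb2 (-0.56), with endosteal signals below. The list's median was 0.34. Its higher calls numbered 1 without central A, central C or endosteal B, 2 without central B or endosteal C, and 9 after poly-A scaling, where 48.8% of all genes were called higher. Itgb1 and Notch1 lost their calls without any array but endosteal A, Itgb5 without central A, central C or endosteal B, and averaging probe sets ended the calls for Itgav and Itgb1.

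RNA for TAZ and YAP, the co-activators upstream of Ccn1 and Ccn2, rose. Among the 16 Hippo pathway genes measured, 4 were called higher and 0 lower by limma, beside 7.92% and 4.02% of all genes. At an unadjusted limma p under 0.05, 3 were lower. The list's median was 0.51. Wwtr1, which encodes TAZ, read 50.1, 106 and 108 in central marrow and 670, 690 and 637 at the endosteum, a log2 change of 2.77 (SE 0.27, adjusted p = 0.00644). Yap1 read 84.9, 117 and 50.5 against 323, 476 and 281 (log2 change 1.93, SE 0.32, limma adjusted p = 0.0222). Neither gene's regions overlapped. The angiomotin genes Amotl1 and Amot, whose proteins bind YAP, changed by 2.16 and 0.99 (0.00720 and 0.0372).

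The kinase genes Lats1, Lats2 and Stk4 differed by -0.17, -0.30 and -0.31 and did not pass, and none of Tead1, Tead2, Tead3 and Tead4 passed. The regions did not overlap for Lats2, Stk4 and Tead4 (-0.78), with endosteal signals below central ones. Of the 16 genes, 5 had all endosteal arrays above and 3 all below, beside 22.3% and 15.4% of all genes. Yap1 lost its call without central A, central C, endosteal A or endosteal B. Amot lost its call without any array but endosteal C, after centring and with averaged probe sets. The list had 2 higher calls without central A, central C, endosteal A or endosteal B, and 12 after poly-A scaling (48.8% of all genes). After centring it had 3 higher and 3 lower calls, where 5.23% and 9.82% of all genes were called.

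Among 20 genes listed as targets of YAP and TEAD other than the CCN members, 7 were called higher and 0 lower by limma. Over all genes the shares were 7.92% and 4.02%. At an unadjusted limma p under 0.05, 3 were lower. The list's median was 0.77. Rbms3, an RNA-binding protein gene, changed by 2.38, the matrix protein gene Ccdc80 by 2.35, and Ajuba, whose product restrains the LATS kinases, by 2.33 (adjusted p of 0.00670, 0.00641 and 0.0108). The IGF carrier gene Igfbp3 changed by 2.06 (0.0243) and lost its call without any array but central C. Ankrd1, often read together with Ccn1 and Ccn2, had signals of 6.67, 58.6 and 48.7 against 139, 13.6 and 101, which overlapped (difference 0.77, limma adjusted p = 0.567). Amotl2, another such gene, read 165, 166 and 204 against 308, 452 and 271, with no overlap and a difference of 0.86 that did not pass (limma adjusted p = 0.0619). The list's higher calls numbered 3 without central B, 4 without central A or endosteal B, 4 with averaged probe sets and 13 after poly-A scaling (48.8% of all genes). After centring it had 4 lower calls (9.82% of all genes).

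The TEAD letters of the Ccn1 promoter were looked for in these genes too. They were in 16.6% of the 27025 genes that had a promoter, and in 6 of the 14 listed targets that had one. Other lists held them as well, among them 7 of 14 Hippo pathway genes and 5 of 14 genes of the serum response factor list, and 0 of 10 in the TGF-beta list. Windows of 30 bases, with the letters in capitals and read in the direction of transcription, are printed for comparison with Ccn1.

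Ajuba (186 bases before the start, chr14:54577830-54577859, minus strand): cgttgatggataCATTCCacagtgcccctc
Ajuba (164 bases before, chr14:54577808-54577837, minus strand): tgcccctccgcgCATTCCaactgtaaacaa
Amotl2 (65 bases before, chr9:102717727-102717756, plus strand): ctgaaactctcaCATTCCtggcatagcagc
Ankrd1 (210 bases before, chr19:36120037-36120066, minus strand): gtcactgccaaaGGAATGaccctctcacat
Ankrd1 (123 bases before, chr19:36119950-36119979, minus strand): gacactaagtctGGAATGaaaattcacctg
Axl (233 bases before, chr7:25788949-25788978, minus strand): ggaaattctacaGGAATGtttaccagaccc
Crim1 (79 bases before, chr17:78200157-78200186, plus strand): agggcgggggggGGAATGaggtaggatggg
Ptpn14 (146 bases before, chr1:189728110-189728139, plus strand): cctccccggacgCATTCCtggcccgcccag

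Of these 6 genes, Ajuba, Crim1 (2.02) and the receptor kinase gene Axl (1.23) were called higher, while Ankrd1, Amotl2 and the phosphatase gene Ptpn14 (0.66) were not. In the whole target list 7 of 20 were called higher, and over all genes 7.92%. A link between the letters and the changes was not tested.

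TGF-beta induces Ccn2, and among the 17 genes measured for its ligands, receptors, SMADs and targets 5 rose and 2 fell (median 0.37). Over all genes 7.92% were called higher and 4.02% lower. The target gene Postn, which encodes periostin of bone and periosteum, went from 49.1 ± 25.5 to 1928 ± 239 (SD, n = 3 arrays per region), a log2 change of 4.96 (limma adjusted p = 0.00209). The ligand gene Tgfb3 changed by 2.43 from central signals of 19.3, 5.88 and 4.55, Ltbp3, whose protein holds latent TGF-beta in the matrix, by 2.04, and the co-receptor gene Tgfbr3 by 1.74 (0.0114, 0.0117 and 0.0264). Tgfb1, another ligand gene, read 5151, 4554 and 4789 against 2516, 1940 and 2235, a log2 change of -1.12 (limma adjusted p = 0.0126). After poly-A scaling its difference was -0.25 and did not pass. Tgfbi, a target gene, changed by -0.77 (limma adjusted p = 0.0286), and its difference was 0.10 after poly-A scaling. Tgfbr3 lost its call without any array but central A, and Tgfbi without any but endosteal C. The list had 3 higher calls without central B, 1 lower call without any array but endosteal C, and 10 higher and 0 lower calls after poly-A scaling (48.8% and 0.341% of all genes).

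Wnt signalling gave Ccn4 and Ccn5 their older names. Among the 14 genes measured, 3 were called higher and 0 lower by limma (0 lower also at an unadjusted p under 0.05). Over all genes 7.92% were called higher and 4.02% lower. The list's median was 0.45, and 12 of the 14 had a mean signal below the median gene. The receptor gene Fzd1 changed by 1.43 (adjusted p = 0.00631), the transcription factor gene Tcf7l2 by 0.75 (0.0238) and Ctnnb1, which encodes beta-catenin, by 0.72 (0.0300). The feedback target Axin2 read 107, 101 and 95.2 against 91.3, 64.7 and 33.7, with no overlap and a difference of -0.63 that did not pass (limma adjusted p = 0.224). Tcf7l2 and Ctnnb1 lost their calls with any 1 array left out. The list's higher calls were 2 without central C and 1 without any other array. They were 1 after centring and 7 after poly-A scaling, where 5.23% and 48.8% of all genes were called higher.

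Serum response factor and its co-factors share cytoskeletal targets with YAP, and among the 15 genes measured 4 rose and 2 fell. Over all genes 7.92% were called higher and 4.02% lower. The list's median was 0.05. The balance followed the scaling, with 3 higher and 5 lower after centring (median -0.21) and 8 higher and 0 lower after poly-A scaling (median 0.68). Of all genes 5.23% were higher and 9.82% lower after centring, and 48.8% and 0.341% after poly-A scaling. The tropomyosin gene Tpm1 changed by 3.69, the actin-binding protein gene Tagln by 2.46, Fhl2 by 2.20 and the myosin light chain gene Myl9 by 1.57 (limma adjusted p = 0.00333, 0.00703, 0.0101 and 0.0483). Mrtfa, the co-factor gene, changed by -1.11 (0.0266) and the focal adhesion gene Zyx by -0.76 (0.0269). After poly-A scaling Mrtfa differed by -0.25 and Zyx by 0.12, and neither passed. Srf itself differed by -0.35 (limma adjusted p = 0.148). Myl9 lost its call without any array but central A, and Mrtfa and Zyx with any 1 of the 6 left out.

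Ccn1 and Ccn2 are immediate early genes, but among 20 others of that kind 0 were called higher and 2 lower by limma. At an unadjusted limma p under 0.05, 1 was higher and 8 were lower. Over all genes 7.92% were called higher and 4.02% lower. The median was -0.35, and it was 0.51 after poly-A scaling, under which 8 were called higher and 0 lower, where 48.8% of all genes were called higher. Zfp36, whose protein destabilises messenger RNAs, changed by -1.05 (adjusted p = 0.00990) and Ier2 by -0.82 (0.0382). After poly-A scaling Zfp36 differed by -0.19 and Ier2 by 0.042, and neither passed. Fos read 970, 530 and 712 against 845, 710 and 741, and Egr1 read 524, 466 and 482 against 770, 535 and 444, both with overlap. Ier2 lost its call with any 1 array left out, and after centring 7 of the list were called lower, as were 9.82% of all genes. Central cells were in suspension and spun before lysis and endosteal cells were not, and the part of that in these values was not tested.

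**Figure D3:**
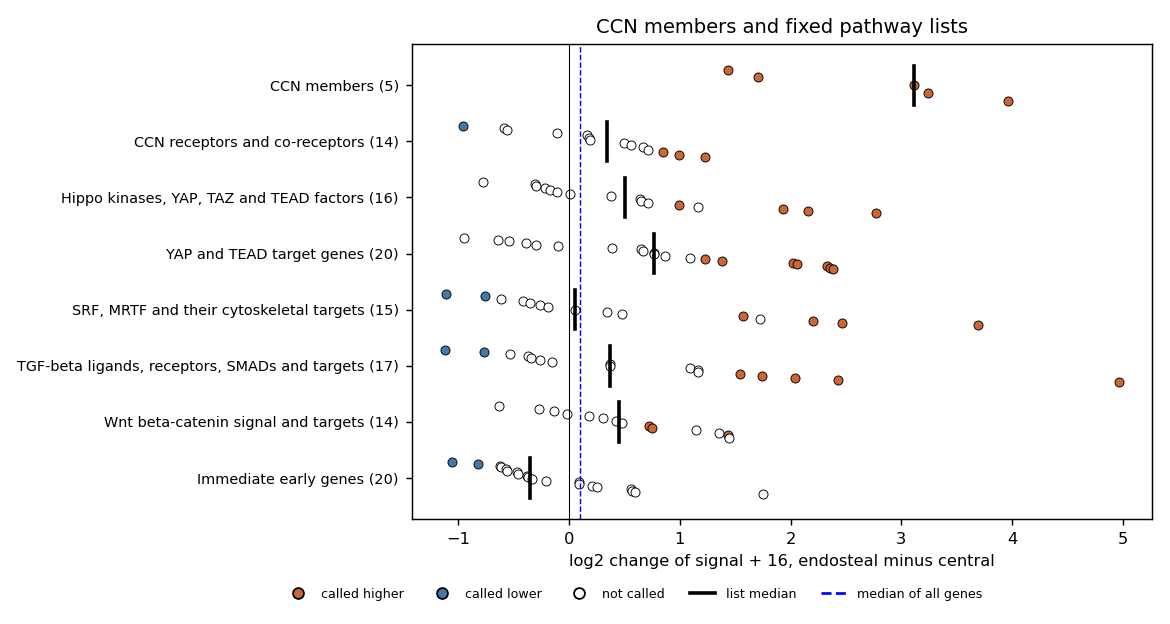
Log2 change of signal + 16 (endosteal minus central) of each CCN member and of each measured gene in 7 pathway lists, with the number measured in brackets; orange points were called higher, blue lower and white neither, thick bars are list medians and the dashed line is the median of all genes, 0.10. The CCN median, 3.11, taken without Ccn6, which is not shown, lies to the right of the 7 list medians, which run from -0.35 to 0.77.

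The endosteal arrays on which the CCN genes were high also gave higher summed signals for marker lists of several cell types. Beside the counts below, 7.92% of all genes were called higher. Bone matrix markers were called higher for 6 of 7 measured, with summed signals of 2079 to 2710 on central and 79606 to 97082 on endosteal arrays. Skeletal muscle markers were higher for 10 of 10 (594 to 1044 against 72069 to 145512), although per the labels' protocols the bones were cleaned of muscle and periosteum. Tendon and periosteal fibroblast markers were higher for 6 of 8 (412 to 465 against 8706 to 11333). Of that list Tnmd did not pass and Scx overlapped. Chondrocyte markers were higher for 4 of 8 (274 to 336 against 1938 to 4075) and osteocyte markers for 1 of 5 (184 to 330 against 2301 to 3544). The endosteal osteocyte sum was mostly Dmp1, the marker called (3031, 2967 and 2098 on endosteal A, B and C). Endothelial markers were higher for 6 of 9 (1369 to 1839 against 4453 to 4753), and those of pericytes and smooth muscle for 3 of 8 (2087 to 2864 against 6012 to 10216). In the latter list Acta2, Myh11, Cnn1 and Cspg4 overlapped. For reticular stroma it was 6 of 6 (2892 to 6138 against 22698 to 27893), and for osteoclasts 6 of 7 (1846 to 2565 against 23801 to 27858). These lists moved together with the CCN genes, and their part in the CCN increases was not tested.

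In the deposited scaling blood cell markers moved both ways, where 7.92% of all genes were called higher and 4.02% lower. Megakaryocyte markers were called higher for 3 of 5 (22102 to 43913 against 82995 to 97508), and neutrophil markers were higher for 3 and lower for 1 of 7 (285706 to 314698 against 418876 to 435196). Erythroid markers passed limma's test for 0 of 4, with 2 lower at an unadjusted p under 0.05 (55483 to 65178 against 35823 to 53793). B lymphocyte markers were lower for 3 of 6 (13743 to 21381 against 4616 to 9313). With 1 array left out these calls ran from 0 to 3 for megakaryocytes, 0 to 1 higher for neutrophils and 0 to 3 for B lymphocytes, and those of chondrocytes and endothelium from 2 to 4 and 3 to 5. The median change of the erythroid markers, -0.33, was 0.54 after poly-A scaling, and that of the neutrophil markers, 0.55, was -0.04 after quantile normalisation. That of the B lymphocyte markers, -1.25, was -0.38 after poly-A scaling, where 0 of them were called lower (0.341% of all genes). No measured marker was listed at 0, and Mepe of osteocytes and Myh11 of smooth muscle were under 16 on all central arrays. The osteocyte markers Sost, Pdpn and Fgf23 overlapped between regions, as did Vpreb1, Rag1 and Pax5 of the B lymphocyte list.

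Among the endosteal arrays, A had the highest muscle sum (145512, against 77454 on B and 72069 on C) and the highest chondrocyte sum (4075, against 2039 and 1938). Ccn2, Ccn3 and Ccn5 were highest on A as well and lowest on C. Ccn1 was highest on B. Ccn4 was highest on C by its brighter probe set, but on A by the other, 1448594_at (290, 152 and 172). By the probe sets that stand for them, the members did not share 1 order over the endosteal arrays. With endosteal A left out, Ccn2 changed by 3.75, Ccn4 by 3.23 and Ccn5 by 1.29, while Ccn1 differed by 3.25 and Ccn3 by 1.36 without passing.

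**Figure D4:**
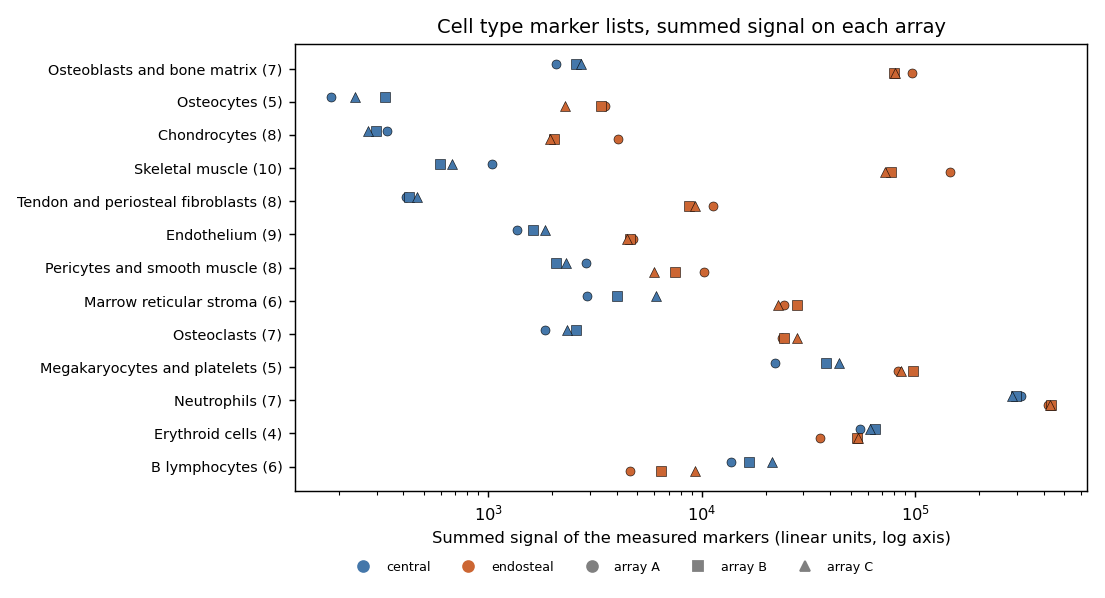
Summed signal (linear units on a log axis) of the measured markers of 13 cell types on each array, central in blue and endosteal in orange, with the array letter as the symbol and the number of markers in brackets. Muscle sums run from 594 to 1044 on central and from 72069 to 145512 on endosteal arrays, while erythroid and B lymphocyte sums are lower on the endosteal arrays in the deposited scaling.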

How the data were processed

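Per the labels, each sample gave biotin-labelled cRNA, starting from 2 micrograms of RNA, for 1 Affymetrix mouse array. The deposited values are linear signal intensities per probe set. The software behind them is not given in the sources used here. After trimming 2% at each end every array had the same mean, so each seems scaled by 1 factor. Array medians were 97.2 to 106 in central and 120 to 131 in endosteal RNA, and 15.9% to 20.1% of probe sets were below 16.

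Probe sets took symbols from the platform annotation (34945 named 1 gene, 932 several, 9160 none here), looked up by gene identifier in RefSeq GRCm38.p6. No build is named for the arrays. The brightest probe set by mean signal stood for each of 18193 genes. Regions were compared on log2(signal + 16) with limma 3.58.1 in R 4.3.3 (lmFit, eBayes, two-sided, Benjamini-Hochberg over all genes). The fit was also run on simulated data with independent noise and 200 changed genes, which differ from these arrays. There 6.19% of calls were false. Changes of 1, 2 and 4 were called for 23.9%, 55.2% and 80.3% of genes given them. An exact permutation test of 3 against 3 arrays cannot go below p = 0.1. Within a region, replicates are arrays of different mice only as far as the labels tell. As 3 mice gave the 6 arrays, the regions share animals, but the reported fit took the arrays as independent. Its p-values measure the spread between arrays, whose small number limits precision. Members and lists were chosen with earlier results of these data known. Named were the 5 members, up to 4 called genes of each list in its commoner direction and 2 in the other, the ligand, receptor or factor genes that define a list, and the 3 nearest profiles to Ccn2. Alternatives were other pseudocounts, scalings, filters and probe set rules, the letter as a block, an intensity trend and each array left out. Genes named beyond that rule were chosen after their values were seen. Of the listed genes, those without a probe set named here were left out.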

Additional observations from a re-analysis of the deposited data

How the results depend on the processing

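The calls rest on 3 arrays per region, on low central signals and on how arrays are scaled. Leaving out 1 array gave 549 to 928 genes called higher and 101 to 307 lower, where all 6 arrays gave 1441 and 731. Over these fits Ccn1 ran from 2.68 to 3.78, Ccn2 from 3.55 to 4.31, Ccn3 from 1.36 to 1.99, Ccn4 from 2.96 to 3.57 and Ccn5 from 1.29 to 1.61. A fit over only the genes above the median level, fewer than the 18193 tested otherwise, called 1670 higher and 1722 lower. Over all 18193 genes, higher and lower calls were 1856 and 1105 with pseudocount 64, and 2215 and 1693 with an intensity trend. They were 951 and 1786 after centring and 8873 and 62 after poly-A scaling, so the share of calls that were higher was 66.3% as deposited, 34.7% and 99.3%. Calls ended for Ccn1 with pseudocount 1 (4.28) and the mean of its probe sets (1.76), and for Ccn3 with pseudocount 1 (3.36), quantile normalisation (1.52), centring (1.44) and the mean of its probe sets (0.85). In the fit over all probe sets 3 of Ccn1 (3.11, 1.18 and 0.89) and both of Ccn3 (1.70 and -0.0092) did not pass. Poly-A scaling turned Zyx (0.12), Tgfbi (0.10) and Ier2 (0.042). The cause of these changes was not tested. Ccn1, Ccn3, Ccn4 and Ccn5 are below the median level and were not in the fit restricted to genes above it, in which Ccn2 kept its call. Ccn2 passed that filter through its endosteal signals, with a mean of 1644 there and 94.7 in central marrow. That call therefore adds no independent support for its increase.

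Letters A to C recur in both regions, and 3 mice gave 6 arrays. Deviations of same-letter arrays correlated at 0.05, 0.04 and 0.01 over all genes and at 0.25, 0.12 and 0.08 above the median level, and 6 of 6 arrays correlated best with their own letter, a hint from the data and not the design. With the letter as a replicate block 143 genes were called higher and 6 lower (0.786% and 0.033% of all genes). Ccn2 passed (3.96, limma adjusted p = 0.0455), while Ccn1 (3.11, 0.0566), Ccn3 (1.70, 0.135), Ccn4 (3.24, 0.0573) and Ccn5 (1.44, 0.0705) did not. As a random effect, the letter ended no call among the members. Calls with the block, against those without it, numbered 0 and 3 higher and 0 and 1 lower for the receptors, 1 and 4 higher for the Hippo list, 2 and 7 for the YAP and TEAD targets, 0 and 4 for the serum response factor list, 3 and 5 for TGF-beta and 0 and 3 for Wnt, and the block left 0 lower calls in each of these and 0 of either kind among immediate early genes. For marker lists the higher calls were 9 and 10 in muscle, 4 and 6 in bone matrix, 3 and 6 in tendon, 2 and 6 in osteoclasts, 1 and 6 in reticular stroma, 1 and 6 in endothelium, 1 and 4 in chondrocytes and 0 and 3 in pericytes and smooth muscle, megakaryocytes and neutrophils each. Wwtr1 had an adjusted p of 0.0519 and Itgav of 0.0622. B lymphocyte markers kept 0 of 3 lower calls.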
